A study of Homo sapiens with 24 samples.

Results

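ARPE-19 is an established human line of retinal pigment epithelium (RPE), the pigmented layer that supports the photoreceptors and borders the vessels behind the retina. EMP2 is a small membrane protein that crosses the membrane several times and belongs to a family with PMP22, EMP1 and EMP3. It is known to bind integrins, to affect which of them reach the cell surface, to activate focal adhesion kinase and to act on caveolae, the small cholesterol-rich pits of the plasma membrane. The comparison described here is of ARPE-19 cells that overexpress EMP2 (OE) with unmodified wild type cells (WT), both kept at normal oxygen (normoxia). It takes in the libraries that carry these labels: the 3 OE and 3 WT libraries in normoxia, 6 of the 24 libraries of the series. The series asked how the level of EMP2 bears on the response of RPE cells to low oxygen. Its other libraries are of vector control (VC) and EMP2 knockdown (KD) cells and of all 4 lines in hypoxia.

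OE cells carry EMP2 in a retroviral vector and were kept as a stable line, VC cells carry a control construct, and WT cells carry neither. The labels do not say whether the OE or VC line was grown from 1 clone, nor whether the 3 libraries of a line came from separate cultures. The p-values and standard errors rest on the spread between libraries within a group, pooled over 8 groups of all 24 libraries. They need not measure a spread between cultures. The labels name the OE libraries of the sets 1 and 2 by another code (OE2) than that of set 3 (OE1). A difference between OE and WT cells is a difference between these lines, and the effect of EMP2 cannot be told apart from that of the vector, of selection or of the history of the line. VC values are therefore given beside each gene named. VC cells differed from WT cells in more genes than OE cells did (35.8% against 19.7%). A change shared with VC cells can thus not be put down to the vector, nor one not shared to EMP2. A mean is followed by its SD over 3 libraries and a log2 change by its standard error. A log2 change of 1 is 2-fold, CPM are scaled counts relative to library size, and a gene was called where the adjusted p of the edgeR quasi-likelihood test was under 0.01.

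The 6 OE and WT libraries held 13825333 to 19779450 counts and the VC libraries 13940314 to 18418463. Where a library had no read of a gene, counting error alone leaves room for a level of 0.150 to 0.215 CPM, depending on the library. No pair of libraries of a line held the same counts: pairs differed by 2.07 to 6.58 times the counting variance. VC libraries stood apart from all others. The 25 HOX genes measured, which set position along the body axis in the embryo, summed to 3730, 3811 and 4960 counts in the VC libraries, to at most 6 in the WT and OE libraries, and to at most 4 in the normoxic KD libraries. Of these, 23 were higher in VC than in WT cells, and 0 were called in OE against WT cells by edgeR, DESeq2 or limma-voom, with 0 at an unadjusted p under 0.05. In bulk RNA, fewer cells with a transcript and less of it per cell cannot be told apart.

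Of 24873 genes tested, 2358 rose in OE cells (9.48%) and 2541 fell (10.2%), 19.7% in all. Among the 15315 protein-coding genes the shares were 13.9% and 15.3%. Among the 12270 of them with at least 1 CPM in WT or OE cells they were 16.2% and 18.4%. Counts of list members given below are to be read beside these shares, and several lists were near them. Against the same WT libraries, VC cells had 19.8% of genes higher, 16% lower and 35.8% in either direction. OE cells against VC cells had 15.4% higher, 18.1% lower and 33.5% in either direction. These comparisons share libraries, so their counts are set side by side with no test between them. Most changes were small: 1289 of the genes that rose and 1511 of those that fell moved by less than 1 on the log2 scale, and 433 and 240 moved by 3 or more. The lowest OE library was above the highest WT library, or the reverse, for 2354 of the 2358 genes that rose and 2538 of the 2541 that fell. The test that called these genes used the same libraries, so such separation largely follows from the call and adds no support. The share over all genes tested is not reported here.

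**Figure D1:**
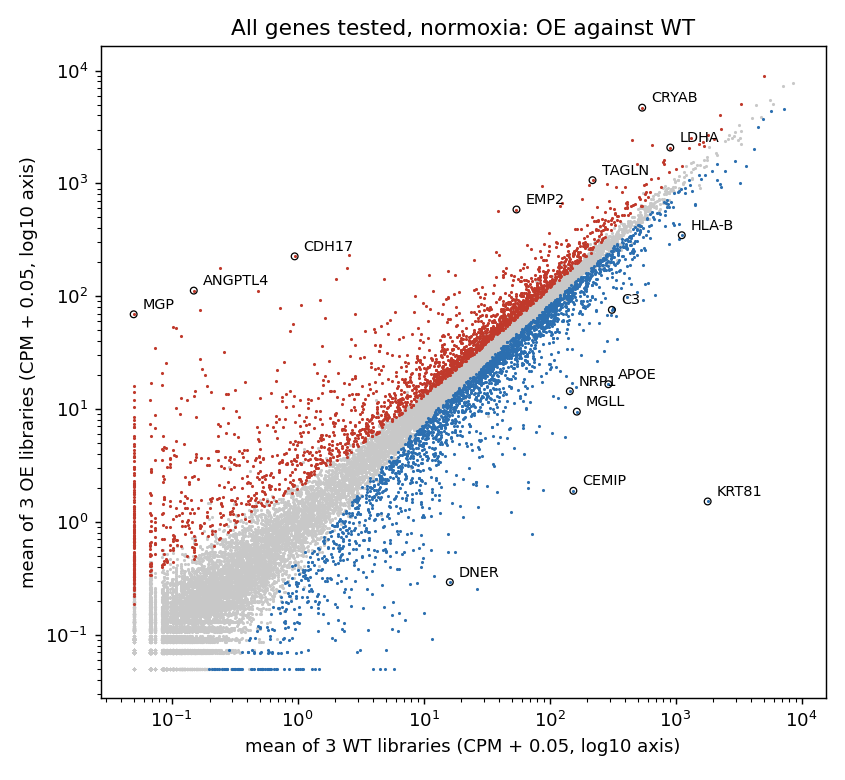
Each point is 1 gene, placed by its mean CPM in WT cells (x axis) and in OE cells (y axis), both on log10 axes with 0.05 CPM added. Red points are the 2358 genes called higher and blue points the 2541 called lower in OE cells, and the labelled genes, with EMP2 among them, are described in the text.

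EMP2 itself checks the labels. It stood at 54.3, 55.6 and 53.8 CPM in the WT libraries, 49.3, 52.0 and 51.0 in the VC libraries and 620.4, 612 and 527 in the OE libraries. All 3 OE libraries were far above the other 6, and the difference of VC and WT did not pass the test (log2 difference -0.10 ± 0.086, edgeR adjusted p = 0.364). The OE minus WT change was 3.42 ± 0.09 on the log2 scale (edgeR adjusted p = 6.12e-23) and OE minus VC was 3.53 ± 0.091. The gene lies on the minus strand at chr16:10528422-10580632 (GRCh38), and reads from the vector copy cannot be told apart from reads of the gene in the genome. Of the family, PMP22, a protein of peripheral myelin, fell from 77.1 ± 3.14 CPM in WT to 41.4 ± 1.36 in OE cells, with 49.2 ± 3.57 in VC cells (log2 change -0.90 ± 0.074). EMP3 fell from 122 ± 3.42 CPM in WT to 85.2 ± 5.14 in OE cells, with 136 ± 5.26 in VC cells (log2 change -0.51 ± 0.089). EMP1 did not pass the test, at 109.9 ± 3.38, 168 ± 8.57 and 101 ± 1.69 CPM in WT, VC and OE cells.

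**Figure D2:**
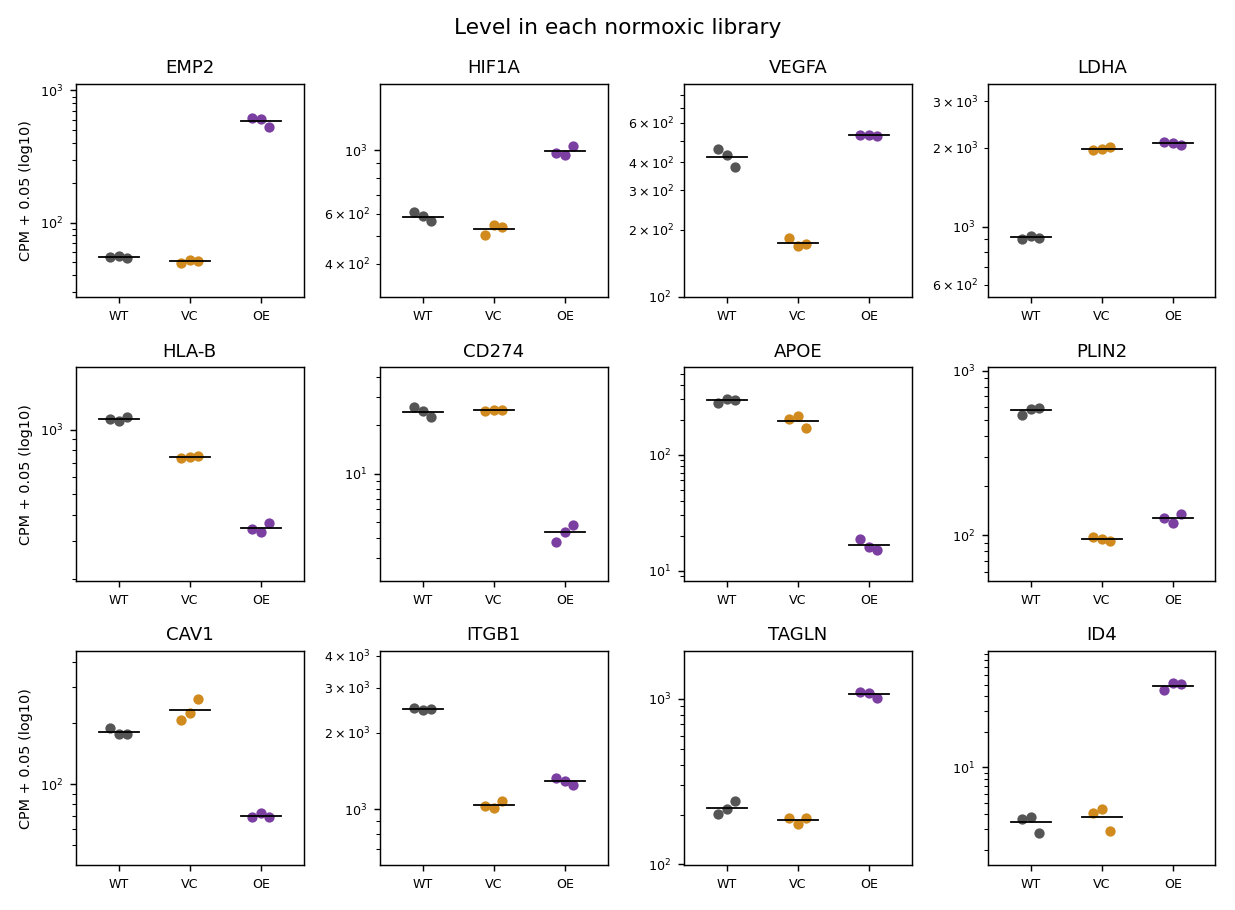
Each panel shows 1 gene, with CPM on a log10 axis (0.05 CPM added) and 1 point per library for the 3 WT, 3 VC and 3 OE libraries in normoxia; the bar marks the mean of each line. EMP2 and ID4 are high in OE libraries, LDHA is above WT and PLIN2 below WT in both OE and VC libraries, and HLA-B, CD274 and APOE are lowest in OE libraries.

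Hypoxia-inducible factors (HIF) are pairs of an alpha and a beta subunit that turn on genes for glycolysis, vessel growth and pH control. In normal oxygen the alpha subunits are hydroxylated, bound by VHL with elongins and degraded. HIF1A, the best known alpha subunit, stood at 607, 587 and 565 CPM in the WT libraries, 507, 548 and 540.2 in the VC libraries and 979, 964 and 1034 in the OE libraries. OE libraries did not overlap the others, and the change was 0.76 ± 0.078 (edgeR adjusted p = 2.85e-09), with 0.90 ± 0.078 against VC cells. Related subunits moved the other way. EPAS1, the alpha subunit of HIF-2, fell from 1069 ± 23.6 CPM in WT to 323 ± 9.32 in OE cells, with 486 ± 21.7 in VC cells (log2 change -1.73 ± 0.091). ARNT2, a beta subunit, fell from 246 ± 3.86 CPM in WT to 58.2 ± 7.25 in OE cells, with 38.9 ± 4.74 in VC cells (log2 change -2.08 ± 0.096). For both the VC mean was also below that of WT cells. ELOB, an elongin, fell from 120.2 ± 7.75 CPM in WT to 84.1 ± 3.72 in OE cells, with 86.0 ± 1.61 in VC cells (log2 change -0.51 ± 0.09), and these 3 and HIF1A were the called genes of 13 measured for the subunits, hydroxylases and the VHL complex. VHL was not called, at 57.9 ± 6.22, 52.5 ± 4.20 and 59.0 ± 3.44 CPM in WT, VC and OE cells (log2 change 0.027 ± 0.093). VCP, a segregase that extracts ubiquitinated proteins, was at 446 ± 15.4, 677 ± 34.7 and 439.8 ± 17.7 CPM in WT, VC and OE cells (log2 change -0.021 ± 0.075, not called), and VC cells were above both.

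Among 33 genes known to respond to HIF, 17 rose and 5 fell, with a median log2 change of 0.34 against 0 over all genes tested. Against WT cells VC cells had 12 higher and 14 lower. The genes that rose span several roles. VEGFA, the main growth factor for vessels, stood at 459, 429 and 379 CPM in the WT libraries, 182, 169 and 172 in the VC libraries and 530.0, 527 and 526 in the OE libraries. Its change in OE cells was 0.32 ± 0.087 (edgeR adjusted p = 0.00518), while all VC libraries were below the WT libraries. The call was lost without any 1 of the 3 OE libraries, and without WT library 2 or 3. ANGPTL4, a secreted inhibitor of lipoprotein lipase, rose from 0.100 ± 0.0443 CPM in WT to 112 ± 8.80 in OE cells, with 56.7 ± 4.04 in VC cells; its 3 WT libraries held 5 reads in all. BHLHE40, a transcriptional repressor of the clock, rose from 113 ± 9.01 CPM in WT to 274 ± 7.80 in OE cells, with 189 ± 2.73 in VC cells (log2 change 1.28 ± 0.081). FAM162A, a mitochondrial protein, rose from 32.3 ± 2.41 CPM in WT to 76.2 ± 5.67 in OE cells, with 50.2 ± 2.13 in VC cells (log2 change 1.24 ± 0.082). PFKFB3, which makes the activator of phosphofructokinase, rose from 80.3 ± 3.96 CPM in WT to 176 ± 11.3 in OE cells, with 202 ± 4.13 in VC cells (log2 change 1.13 ± 0.076). LOX, which cross-links collagen, rose from 887 ± 52.2 CPM in WT to 1274 ± 10.9 in OE cells, with 443 ± 25.8 in VC cells (log2 change 0.52 ± 0.078). Of the 5 that fell, CA12, a carbonic anhydrase of the cell surface, went from 71.9 ± 1.43 CPM in WT to 0.734 ± 0.512 in OE cells, with 14.8 ± 0.767 in VC cells. STC2, a secreted glycoprotein that inhibits the protease PAPPA, fell from 306 ± 12.4 CPM in WT to 67.8 ± 4.26 in OE cells, with 80.8 ± 3.001 in VC cells. PLIN2, the coat protein of lipid droplets, fell from 574 ± 31.6 CPM in WT to 127 ± 7.99 in OE cells, with 94.9 ± 2.37 in VC cells.

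Glycolysis and glycogen genes had 14 of 39 higher and 5 lower. LDHA, which turns pyruvate into lactate, stood at 898, 925 and 903 CPM in the WT libraries, 1958, 1970.1 and 2012 in the VC libraries and 2101, 2081 and 2045 in the OE libraries. All OE libraries were above the VC libraries and all of both above WT, with changes from WT of 1.19 ± 0.057 and 1.12 ± 0.057, and the gene lies on the stretch of chromosome 11 described further on. PGK1 rose from 403 ± 15.7 CPM in WT to 674 ± 3.20 in OE cells, with 605 ± 23.7 in VC cells (log2 change 0.74 ± 0.076). PGAM1 rose from 30.998 ± 1.56 CPM in WT to 67.3 ± 1.95 in OE cells, with 42.2 ± 0.584 in VC cells (log2 change 1.12 ± 0.095). HK2, the inducible hexokinase, rose from 27.1 ± 0.856 CPM in WT to 63.8 ± 3.87 in OE cells, with 119.6 ± 5.49 in VC cells (log2 change 1.23 ± 0.099). PPP1R3C, a subunit that directs a phosphatase to glycogen, rose from 21.6 ± 0.761 CPM in WT to 52.5 ± 3.32 in OE cells, with 27.2 ± 0.579 in VC cells (log2 change 1.28 ± 0.087). GYS1, which makes glycogen, fell from 83.3 ± 5.01 CPM in WT to 55.1 ± 3.33 in OE cells, with 114 ± 4.58 in VC cells. GAPDH, often used as a reference gene, rose from 1800.0 ± 47.0 CPM in WT to 2702 ± 18.3 in OE cells, with 2409.9 ± 54.4 in VC cells. Of 24 genes commonly used as references, 5 rose (20.8%) and 2 fell (8.33%), beside 13.9% and 15.3% of protein-coding genes. Mitochondrially encoded genes were not called in either direction (0 of 15 by edgeR, DESeq2 or limma-voom, 1 lower at an unadjusted p under 0.05), and of 76 nuclear genes of the respiratory chain 2 rose and 4 fell. MT-RNR1, the small ribosomal RNA of the mitochondrion, was at 545 ± 15.9, 605 ± 56.6 and 476 ± 69.0 CPM in WT, VC and OE cells (log2 change -0.20 ± 0.13, not called).

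The core of the DNA element that HIF binds reads ACGTG. It is shown here in the promoters of 3 genes of these groups that rose, because they hold the letters at different distances from the gene start. Promoters are RefSeq windows of GRCh38.p14, from 250 bases before to 50 bases after the gene start, printed 5′ to 3′ on the strand of the gene, with each match to ACGTG or its other strand CACGT in capitals. ANGPTL4 is at chr19:8363905-8364204 on the plus strand, CA9 at chr9:35673678-35673977 on the plus strand and PGK1 at chrX:78103998-78104297 on the plus strand.
ANGPTL4: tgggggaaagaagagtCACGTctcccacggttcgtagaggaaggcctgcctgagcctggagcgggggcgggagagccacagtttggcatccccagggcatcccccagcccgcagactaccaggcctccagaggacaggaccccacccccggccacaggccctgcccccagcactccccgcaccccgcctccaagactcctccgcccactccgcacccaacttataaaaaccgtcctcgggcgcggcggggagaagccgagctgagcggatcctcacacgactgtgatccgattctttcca
CA9: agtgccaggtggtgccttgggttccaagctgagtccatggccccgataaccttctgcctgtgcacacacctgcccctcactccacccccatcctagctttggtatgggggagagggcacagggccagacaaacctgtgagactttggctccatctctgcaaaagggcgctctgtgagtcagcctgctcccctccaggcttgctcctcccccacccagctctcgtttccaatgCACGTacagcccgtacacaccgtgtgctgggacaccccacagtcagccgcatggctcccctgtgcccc
PGK1: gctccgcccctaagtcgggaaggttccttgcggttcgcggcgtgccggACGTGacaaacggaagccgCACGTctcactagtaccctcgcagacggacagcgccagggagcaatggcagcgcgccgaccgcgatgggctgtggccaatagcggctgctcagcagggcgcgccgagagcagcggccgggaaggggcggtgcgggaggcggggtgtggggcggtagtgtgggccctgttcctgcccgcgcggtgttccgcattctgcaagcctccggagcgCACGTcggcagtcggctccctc
ANGPTL4 holds 1 match, beginning 234 bases before the start, CA9 holds 1, beginning 18 bases before it, and PGK1 holds 3. CA9, a carbonic anhydrase of the cell surface, rose from 63.0 ± 3.18 CPM in WT to 192 ± 5.58 in OE cells, with 36.6 ± 2.29 in VC cells (log2 change 1.61 ± 0.097). The letters were found in 10 of the 15 HIF target promoters matched whose genes rose and in 1 of the 4 whose genes fell. Among glycolysis and glycogen promoters they were in 6 of the 14 whose genes rose, PGK1 among them, and in 1 of the 4 whose genes fell. Over the whole lists, called or not, they were in 15 of 27 HIF target and 12 of 35 glycolysis and glycogen promoters. They were in 3317 of 13092 promoters of tested genes (25.3%). Among promoters of all genes that rose the share was 27.3%, and of all that fell 22.1%. A match is a string of letters and not a bound site.

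Genes of antigen presentation, interferon response, cytokines and complement fell more often than they rose in OE cells. MHC class I molecules present peptides to cytotoxic T cells: proteasome subunits cut proteins, TAP carries the peptides into the endoplasmic reticulum, and chaperones load them on a heavy chain paired with B2M. The list used here also holds other surface ligands, CD274, MICB, RAET1E and ULBP3 among them. Of its 32 genes 0 rose and 21 fell, and the median log2 change was -0.83. DESeq2 and limma-voom also called 0 higher, and 1 was higher at an unadjusted p under 0.05. Against WT cells VC cells had 15 higher and 9 lower, and OE against VC cells 2 higher and 24 lower. Summed over the list, the level was 8336 to 8601 in WT, 7661 to 7922 in VC and 5404 to 5485 in OE libraries (CPM), so that the 3 lines did not overlap. HLA-B stood at 1119, 1096 and 1149 CPM in the WT libraries, 740.2, 745 and 751 in the VC libraries and 343, 332 and 366 in the OE libraries, a change of -1.69 ± 0.093 (edgeR adjusted p = 2.64e-15). HLA-F, another heavy chain, fell from 34.1 ± 1.72 CPM in WT to 12.2 ± 0.907 in OE cells, with 26.3 ± 0.389 in VC cells (log2 change -1.47 ± 0.096). Class I heavy chains are alike in sequence and single reads of 50 bases can be split between them, so the levels of single HLA genes are uncertain. NLRC5, the activator of class I genes, fell from 28.3 ± 1.16 CPM in WT to 9.56 ± 0.557 in OE cells, with 14.9 ± 0.437 in VC cells (log2 change -1.57 ± 0.098). TAP1 fell from 31.2 ± 2.49 CPM in WT to 17.1 ± 1.44 in OE cells, with 39.9 ± 2.46 in VC cells (log2 change -0.86 ± 0.099). PSMB10, a subunit of the immunoproteasome, fell from 12.04 ± 1.13 CPM in WT to 4.36 ± 0.260 in OE cells, with 24.2 ± 2.97 in VC cells (log2 change -1.47 ± 0.14). CD274, which encodes the inhibitory ligand PD-L1, stood at 26.1, 24.6 and 22.5 CPM in the WT libraries, 24.6, 24.9 and 24.99 in the VC libraries and 3.73, 4.30 and 4.74 in the OE libraries. WT and VC libraries overlapped for CD274 and OE libraries were below both, with changes of -2.52 ± 0.11 and -2.54 ± 0.11. PDCD1LG2, which encodes PD-L2, fell from 42.9 ± 2.83 CPM in WT to 13.4 ± 0.964 in OE cells, with 14.4 ± 1.84 in VC cells. MHC class II genes were not called in OE cells (0 of 12 by edgeR, DESeq2 or limma-voom, 2 higher at an unadjusted p under 0.05), while 10 of 12 were higher in VC cells.

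Interferon-stimulated genes, which restrict viruses, had 25 of 53 lower and 5 higher in OE cells (median log2 change -0.41). VC cells had 27 higher and 12 lower than WT cells, and OE against VC cells 2 higher and 40 lower. GBP2, a guanylate-binding protein, stood at 133, 148 and 123.8 CPM in the WT libraries, 55.2, 50.3 and 46.8 in the VC libraries and 19.7, 20.6 and 18.5 in the OE libraries, with the 3 lines apart from each other. Its relative GBP4 fell from 15.5 ± 1.59 CPM in WT to 0.486 ± 0.406 in OE cells, with 15.1 ± 1.93 in VC cells (log2 change -4.96 ± 0.24). GBP1 fell from 116 ± 1.04 CPM in WT to 32.1 ± 2.82 in OE cells, with 40.6 ± 3.69 in VC cells (log2 change -1.86 ± 0.083). IFIT2, which binds viral RNA, fell from 35.3 ± 2.64 CPM in WT to 5.75 ± 0.771 in OE cells, with 9.64 ± 0.921 in VC cells (log2 change -2.61 ± 0.12). IFIT3 fell from 49.8 ± 2.18 CPM in WT to 15.3 ± 0.904 in OE cells, with 19.8 ± 2.29 in VC cells (log2 change -1.70 ± 0.085). IRF1, a transcription factor of the response, fell from 36.1 ± 2.06 CPM in WT to 14.9 ± 1.35 in OE cells, with 38.8 ± 1.88 in VC cells. Of the 5 that rose, IFI44L went from 4.79 ± 1.19 CPM in WT to 11.6 ± 1.57 in OE cells, with 9.62 ± 3.01 in VC cells and SAMD9 from 0.905 ± 0.121 CPM in WT to 2.89 ± 0.469 in OE cells, with 18.2 ± 1.72 in VC cells. IFI27 rose from 0.144 ± 0.140 CPM in WT to 0.704 ± 0.201 in OE cells, with 61.4 ± 7.31 in VC cells, far below its VC level, and its call was lost without OE or WT library 1. TRIM5 rose from 27.9 ± 0.675 CPM in WT to 51.1 ± 1.46 in OE cells, with 32.6 ± 1.47 in VC cells. TRIM22 rose from 108 ± 3.05 CPM in WT to 138 ± 0.856 in OE cells, with 87.1 ± 2.02 in VC cells, and both lie on the stretch of chromosome 11 described further on.

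Promoters of 5 genes of these 2 lists are printed because their genes moved in both directions. The interferon-stimulated response element is known as a pair of GAAA repeats, and matches to GAAA, any 2 bases and GAAA, or on the other strand TTTC, any 2 bases and TTTC, are in capitals. TAP1 is at chr6:32853655-32853954 (minus strand), PSMB10 at chr16:67936801-67937100 (minus), GBP1 at chr1:89065159-89065458 (minus), IFIT3 at chr10:89327747-89328046 (plus) and IFI44L at chr1:78620198-78620497 (plus).
TAP1: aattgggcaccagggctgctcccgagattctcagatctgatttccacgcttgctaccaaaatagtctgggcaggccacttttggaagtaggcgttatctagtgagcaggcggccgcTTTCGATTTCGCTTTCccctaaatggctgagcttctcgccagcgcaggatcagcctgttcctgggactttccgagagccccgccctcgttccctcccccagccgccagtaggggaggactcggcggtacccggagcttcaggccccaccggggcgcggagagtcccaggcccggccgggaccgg
PSMB10: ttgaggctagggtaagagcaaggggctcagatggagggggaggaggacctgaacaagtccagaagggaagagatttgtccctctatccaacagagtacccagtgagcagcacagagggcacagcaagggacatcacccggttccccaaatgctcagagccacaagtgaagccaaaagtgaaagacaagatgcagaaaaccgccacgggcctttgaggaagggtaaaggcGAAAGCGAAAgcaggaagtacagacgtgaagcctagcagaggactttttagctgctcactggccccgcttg
GBP1: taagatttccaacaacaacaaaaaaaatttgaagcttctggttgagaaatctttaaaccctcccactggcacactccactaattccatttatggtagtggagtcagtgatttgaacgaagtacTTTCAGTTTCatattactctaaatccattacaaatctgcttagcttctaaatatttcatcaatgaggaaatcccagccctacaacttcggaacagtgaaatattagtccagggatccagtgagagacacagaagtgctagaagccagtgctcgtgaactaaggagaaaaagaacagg
IFIT3: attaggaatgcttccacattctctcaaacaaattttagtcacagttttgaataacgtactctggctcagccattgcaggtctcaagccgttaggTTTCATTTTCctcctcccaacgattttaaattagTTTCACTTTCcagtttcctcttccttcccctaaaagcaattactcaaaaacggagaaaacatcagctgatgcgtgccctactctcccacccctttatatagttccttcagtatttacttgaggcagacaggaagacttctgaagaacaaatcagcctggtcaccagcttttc
IFI44L: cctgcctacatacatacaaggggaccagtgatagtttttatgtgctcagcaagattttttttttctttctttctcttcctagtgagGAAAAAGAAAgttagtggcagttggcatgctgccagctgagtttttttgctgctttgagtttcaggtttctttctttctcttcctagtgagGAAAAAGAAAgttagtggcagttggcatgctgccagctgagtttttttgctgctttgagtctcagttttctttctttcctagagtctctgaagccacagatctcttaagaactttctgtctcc
The first 4 belong to genes that fell and the last to one that rose, and each holds 1 or 2 matches. Such a match was present in 9 of the 17 promoters of the class I list whose genes fell, CD274 among the 9. It was in 10 of the 19 interferon-stimulated promoters whose genes fell, and in 4 of the 4 whose genes rose. Over the whole lists, called or not, it was present in 10 of 27 class I promoters (37.0%) and 23 of 37 interferon-stimulated promoters (62.2%). In the interferon-stimulated list the match was thus not particular to genes that fell. Over 13092 promoters of tested genes the share was 2.94%. Among promoters of all genes that fell it was 3.23%, and of all that rose 2.62%.

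**Figure D3:**
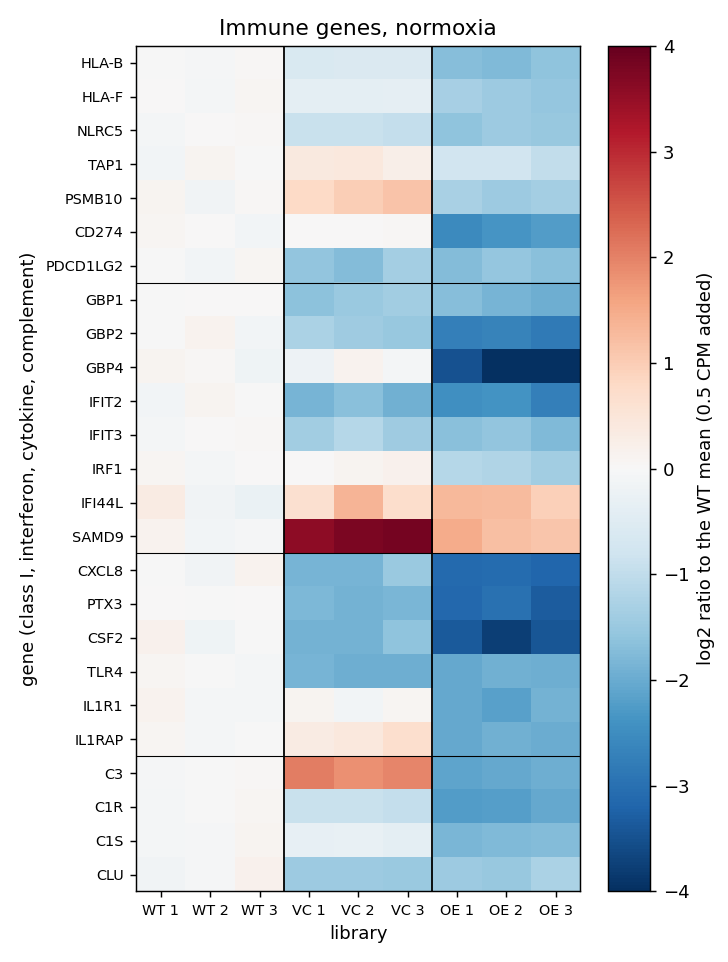
Each row is 1 gene and each column 1 of the 9 normoxic libraries of WT, VC and OE cells; colour is the log2 ratio of its CPM (0.5 CPM added) to the WT mean, cut at -4 and 4, with blue below and red above. The OE columns are blue for all genes shown but IFI44L and SAMD9, while VC columns hold both colours.

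Chemokines, cytokines and their receptors had 5 of 59 higher and 27 lower, with a median log2 change of -1.03. CXCL8, which attracts neutrophils, stood at 150.4, 137 and 167 CPM in the WT libraries, 41.5, 41.7 and 53.6 in the VC libraries and 17.0, 17.6 and 16.4 in the OE libraries, a change of -3.15 ± 0.12 (edgeR adjusted p = 8.15e-18). VC libraries lay between those of WT and OE cells. PTX3, a soluble pattern receptor, fell from 239 ± 1.37 CPM in WT to 26.7 ± 3.23 in OE cells, with 66.7 ± 2.75 in VC cells (log2 change -3.16 ± 0.11). CSF2, a growth factor of granulocytes and macrophages, fell from 7.81 ± 1.02 CPM in WT to 0.233 ± 0.108 in OE cells, with 1.91 ± 0.294 in VC cells (log2 change -5.06 ± 0.32). TLR4, the receptor for endotoxin, fell from 63.9 ± 3.68 CPM in WT to 15.98 ± 0.728 in OE cells, with 16.6 ± 0.680 in VC cells (log2 change -1.999 ± 0.081). IL1R1, the signalling receptor of interleukin 1, fell from 21.7 ± 1.90 CPM in WT to 4.92 ± 0.512 in OE cells, with 22.2 ± 1.94 in VC cells (log2 change -2.15 ± 0.12), and its partner IL1RAP from 108 ± 6.20 CPM in WT to 27.0 ± 1.32 in OE cells, with 151 ± 18.3 in VC cells. VC libraries overlapped WT for IL1R1 and were above WT for IL1RAP. Of those that rose, TNFSF15 went from 0.258 ± 0.107 CPM in WT to 1.12 ± 0.847 in OE cells, with 6.78 ± 1.12 in VC cells, with OE and WT libraries overlapping, and IL34 from 0.100 ± 0.0443 CPM in WT to 0.488 ± 0.189 in OE cells, with 2.69 ± 1.01 in VC cells. The call of TNFSF15 was lost without OE library 1 or 2 or any 1 WT library, and that of IL34 without OE library 1 or 3 or any 1 WT library.

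Beside 13.9% and 15.3% of protein-coding genes, complement genes had 2 of 27 higher (7.41%) and 11 lower (40.7%), with a median of -0.67. C3, the central component, fell from 312 ± 9.89 CPM in WT to 75.6 ± 4.56 in OE cells, with 1202 ± 90.4 in VC cells (log2 change -2.05 ± 0.12). C1R fell from 492 ± 29.3 CPM in WT to 109 ± 8.47 in OE cells, with 261 ± 8.40 in VC cells (log2 change -2.17 ± 0.096). C1S, the second protease of the first component, fell from 445 ± 33.1 CPM in WT to 129 ± 4.67 in OE cells, with 351 ± 9.78 in VC cells (log2 change -1.79 ± 0.068). CLU, an extracellular chaperone, fell from 321 ± 38.5 CPM in WT to 121 ± 10.7 in OE cells, with 116 ± 1.56 in VC cells (log2 change -1.41 ± 0.13). MASP1, a protease of the lectin pathway, rose from 0.0900 ± 0.112 CPM in WT to 3.37 ± 0.206 in OE cells, with 0.596 ± 0.146 in VC cells. C4A and C4B are near copies and their reads cannot be told apart here; the deposited values were 1.38 ± 0.374, 11.5 ± 1.53 and 0.171 ± 0.0935 CPM in WT, VC and OE cells and 5.34 ± 1.19, 32.3 ± 1.98 and 0.350 ± 0.301 CPM in WT, VC and OE cells. For C3 and C4B the VC level was several times above WT, so OE and VC lay on opposite sides.

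Genes of sterol synthesis fell. Cells make cholesterol from acetyl-CoA through mevalonate, squalene and lanosterol under the control of SREBF2, and fatty acids under that of SREBF1. Of 27 sterol genes 0 rose and 20 fell, with a median log2 change of -0.54. DESeq2 and limma-voom also called 0 higher, and 1 was higher at an unadjusted p under 0.05. VC cells had 4 higher and 17 lower than WT cells, and OE against VC cells 5 higher and 7 lower. MVD, which makes isopentenyl diphosphate, stood at 56.1, 56.2 and 52.6 CPM in the WT libraries, 50.6, 44.9 and 45.0 in the VC libraries and 26.4, 24.3 and 22.02 in the OE libraries, a change of -1.18 ± 0.11 (edgeR adjusted p = 3.29e-10). LSS, the lanosterol synthase, fell from 134 ± 4.17 CPM in WT to 69.6 ± 2.41 in OE cells, with 107 ± 3.06 in VC cells (log2 change -0.95 ± 0.11). FDFT1, which makes squalene, fell from 184 ± 8.22 CPM in WT to 108 ± 7.36 in OE cells, with 104 ± 5.22 in VC cells (log2 change -0.76 ± 0.074). INSIG1, which holds the SREBF proteins back, fell from 107 ± 9.77 CPM in WT to 61.2 ± 6.83 in OE cells, with 79.2 ± 5.49 in VC cells (log2 change -0.81 ± 0.084).

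Of 34 fatty acid and lipid droplet genes 4 rose and 15 fell (median -0.32). APOE, a lipid carrier that RPE cells secrete, stood at 279.8, 304 and 296 CPM in the WT libraries, 202, 214 and 171 in the VC libraries and 18.6, 15.9 and 15.1 in the OE libraries. The 3 OE libraries were far below the other 6, with changes of -4.15 ± 0.15 (edgeR adjusted p = 6.13e-16) and -3.57 ± 0.15 against VC cells. SCD, which makes oleate, fell from 1059.6 ± 55.0 CPM in WT to 440.1 ± 31.1 in OE cells, with 653 ± 43.4 in VC cells (log2 change -1.27 ± 0.071). ELOVL6, a fatty acid elongase, fell from 82.7 ± 3.01 CPM in WT to 32.8 ± 2.49 in OE cells, with 55.6 ± 1.79 in VC cells (log2 change -1.33 ± 0.075). DGAT2, which makes triglyceride, fell from 26.0 ± 0.765 CPM in WT to 2.06 ± 0.291 in OE cells, with 8.48 ± 0.670 in VC cells (log2 change -3.64 ± 0.15). ELOVL4, which makes very long chains in the retina, rose from 1.74 ± 0.519 CPM in WT to 8.22 ± 0.206 in OE cells, with 3.23 ± 0.435 in VC cells (log2 change 2.25 ± 0.21). MGLL, which hydrolyses monoglycerides, stood at 172, 166 and 156 CPM in the WT libraries, 135, 127 and 146 in the VC libraries and 9.26, 10.4 and 8.64 in the OE libraries, a change of -4.12 ± 0.091. Among genes of lipid mediators, PTGIS, the prostacyclin synthase, rose from 122 ± 6.48 CPM in WT to 629 ± 5.06 in OE cells, with 163 ± 18.2 in VC cells. PTGES, a prostaglandin E synthase, rose from 36.1 ± 5.36 CPM in WT to 126 ± 10.8 in OE cells, with 53.6 ± 3.18 in VC cells. ALOX5, the first enzyme of leukotriene synthesis, had 1, 932 and 1663 reads in WT, VC and OE cells, a ratio of OE to WT of 1775-fold (95% counting interval 318 to 70158). ENPP2, which makes lysophosphatidic acid, fell from 179 ± 5.99 CPM in WT to 29.9 ± 0.464 in OE cells, with 20.6 ± 2.11 in VC cells.

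**Figure D4:**
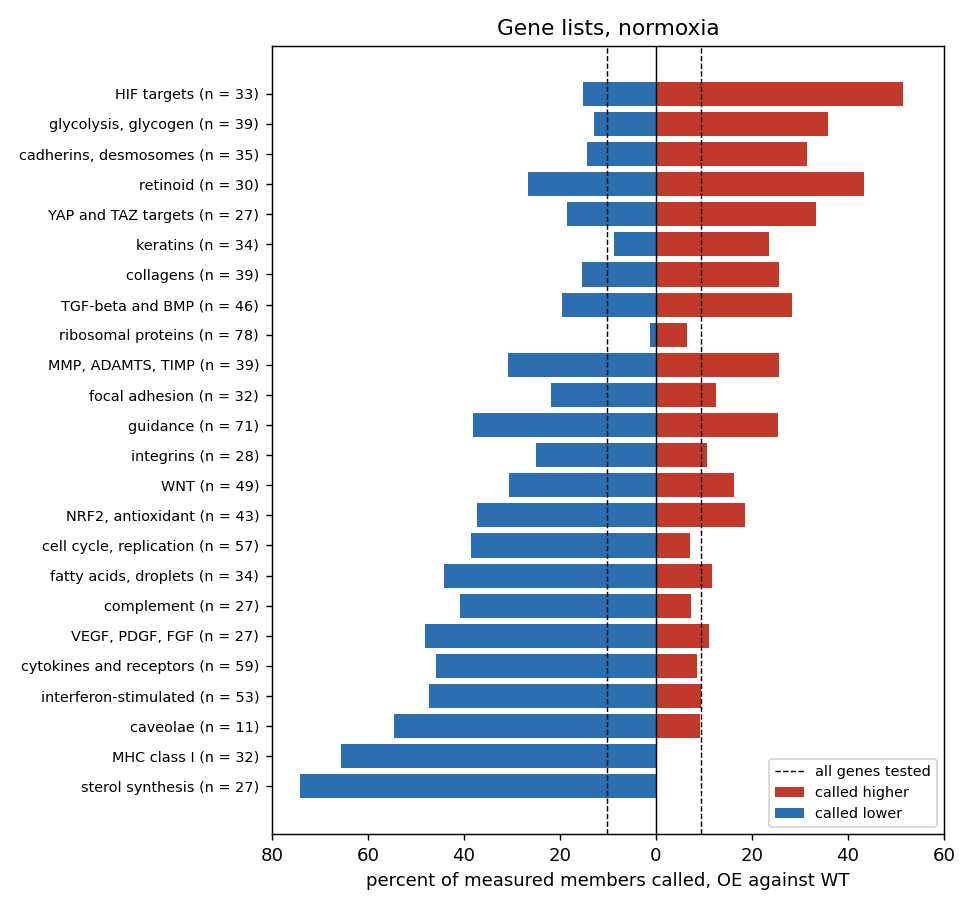
For 24 of the gene lists, red bars to the right give the percentage of measured members called higher in OE than in WT cells and blue bars to the left the percentage called lower; dashed lines mark the shares over all genes tested, 9.48% and 10.2%. Class I, sterol, cytokine and interferon lists lie to the left, and HIF target and glycolysis lists to the right. Over protein-coding genes alone, not drawn, the shares were 13.9% and 15.3%.

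Integrins are the known partners of EMP2 and join cells to the matrix as pairs of an alpha and a beta chain. The list of 28 genes measured was drawn by gene symbol and is not limited to integrin chains. Of these 28, 3 rose (10.7%) and 7 fell (25%), beside 13.9% and 15.3% of protein-coding genes. ITGB1, the beta chain with most partners, stood at 2489.5, 2462 and 2473 CPM in the WT libraries, 1034, 1013 and 1076 in the VC libraries and 1321, 1291 and 1250.3 in the OE libraries, a change of -0.94 ± 0.06 (edgeR adjusted p = 9.18e-14). OE and VC libraries were all below WT, and OE was above VC. ITGA5, its partner for fibronectin, fell from 534 ± 17.3 CPM in WT to 255 ± 7.42 in OE cells, with 152 ± 6.76 in VC cells (log2 change -1.07 ± 0.09). ITGA6, the partner for laminin, fell from 173 ± 9.76 CPM in WT to 73.5 ± 4.10 in OE cells, with 185 ± 10.8 in VC cells (log2 change -1.24 ± 0.071), with VC libraries overlapping WT. ITGB5, which with ITGAV takes part in the uptake of shed photoreceptor tips by the RPE, fell from 2249 ± 51.6 CPM in WT to 996 ± 132 in OE cells, with 316 ± 20.9 in VC cells (log2 change -1.18 ± 0.098). ITGAV rose from 807 ± 64.6 CPM in WT to 1474 ± 13.9 in OE cells, with 662 ± 23.7 in VC cells (log2 change 0.87 ± 0.073). ITGA1, a collagen receptor chain, rose from 76.8 ± 4.02 CPM in WT to 143 ± 5.70 in OE cells, with 103 ± 2.72 in VC cells. ITGBL1, an integrin-like secreted protein, rose from 18.2 ± 0.494 CPM in WT to 79.7 ± 1.55 in OE cells, with 61.7 ± 5.01 in VC cells. PTK2, the focal adhesion kinase, was not called, at 166 ± 1.36, 146 ± 2.21 and 171 ± 6.18 CPM in WT, VC and OE cells. Of 32 focal adhesion genes 4 rose (12.5%) and 7 fell (21.9%), also near the shares of protein-coding genes. VCL and TLN1 were among those that fell. VCL, which links talin to actin, went from 1192 ± 47.4 CPM in WT to 819 ± 43.3 in OE cells, with 503 ± 28.7 in VC cells. TLN1, or talin, went from 889 ± 29.3 CPM in WT to 616 ± 16.6 in OE cells, with 522 ± 35.2 in VC cells.

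Caveolar genes had 1 of 11 higher and 6 lower. CAV1, the main coat protein, stood at 189.7, 177 and 177 CPM in the WT libraries, 208, 225 and 264 in the VC libraries and 68.9, 71.9 and 68.7 in the OE libraries. OE libraries were below all WT and VC libraries (change -1.38 ± 0.077, edgeR adjusted p = 3.94e-15). CAV2 fell from 61.1 ± 8.24 CPM in WT to 31.6 ± 2.41 in OE cells, with 59.2 ± 12.3 in VC cells (log2 change -0.95 ± 0.15), CAVIN1, the coat adaptor, from 352 ± 29.0 CPM in WT to 251 ± 19.5 in OE cells, with 807 ± 36.1 in VC cells (log2 change -0.49 ± 0.091), and EHD2, an ATPase at the neck of the pit, from 351 ± 19.4 CPM in WT to 201 ± 7.79 in OE cells, with 282 ± 10.6 in VC cells (log2 change -0.80 ± 0.12). CAVIN2, a further adaptor, rose from 4.34 ± 0.413 CPM in WT to 7.81 ± 0.237 in OE cells, with 19.99 ± 1.77 in VC cells (log2 change 0.85 ± 0.15).

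Matrix genes moved in both directions. Collagens had 10 of 39 higher (25.6%) and 6 lower (15.4%), beside 13.9% and 15.3% of protein-coding genes. COL4A3 and COL4A4, chains of the basement membrane network of kidney and eye, rose from 8.46 ± 0.827 CPM in WT to 101 ± 0.362 in OE cells, with 13.3 ± 0.683 in VC cells (log2 change 3.58 ± 0.12) and from 24.98 ± 0.875 CPM in WT to 211 ± 5.27 in OE cells, with 38.7 ± 5.34 in VC cells (log2 change 3.08 ± 0.094). COL1A1 rose from 99.2 ± 3.997 CPM in WT to 249.9 ± 32.6 in OE cells, with 49.2 ± 3.48 in VC cells (log2 change 1.33 ± 0.16). COL6A1, a chain of the microfibrillar collagen, fell from 183 ± 5.73 CPM in WT to 49.8 ± 4.23 in OE cells, with 691 ± 28.4 in VC cells (log2 change -1.88 ± 0.13). Among basement membrane genes 3 of 23 rose (13.0%) and 6 fell (26.1%), and the first share was near the 13.9% of protein-coding genes. LAMA4 fell from 337 ± 2.57 CPM in WT to 117 ± 15.8 in OE cells, with 94.0 ± 1.33 in VC cells. NID2 fell from 234 ± 4.09 CPM in WT to 74.2 ± 6.07 in OE cells, with 13.2 ± 0.615 in VC cells. SPARC fell from 5702 ± 338 CPM in WT to 4371 ± 133 in OE cells, with 1206 ± 54.3 in VC cells. LAMA3 rose from 14.1 ± 0.394 CPM in WT to 33.1 ± 3.98 in OE cells, with 10.6 ± 1.03 in VC cells. Of 44 matricellular and elastic fibre genes 15 rose and 9 fell. TGFBI, a matrix protein mutated in corneal dystrophy, stood at 4939.8, 5229 and 5032 CPM in the WT libraries, 1511, 1425 and 1409 in the VC libraries and 9224, 8865 and 8974 in the OE libraries. VC libraries were far below both, and the OE minus WT change was 0.83 ± 0.066 (edgeR adjusted p = 1.39e-11). FBLN2, a fibulin, rose from 9.76 ± 0.464 CPM in WT to 86.5 ± 3.03 in OE cells, with 3.78 ± 0.818 in VC cells. THBS1, an inhibitor of vessel growth, rose from 3300.5 ± 272 CPM in WT to 5076 ± 420.0 in OE cells, with 2848 ± 141 in VC cells. EFEMP1, a fibulin mutated in an inherited drusen disease, fell from 4194 ± 137 CPM in WT to 2013 ± 128 in OE cells, with 742 ± 5.45 in VC cells. MGP, which restrains calcification, had 0, 290 and 3339 reads in WT, VC and OE cells, and was at least 1188-fold higher in OE than in WT cells, taking 3 reads over the WT group as its limit.

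Matrix proteases of the MMP, ADAMTS and TIMP families had 10 of 39 higher (25.6%) and 12 lower (30.8%), beside 13.9% and 15.3% of protein-coding genes. MMP2 stood at 517, 459 and 495 CPM in the WT libraries, 296, 267 and 323 in the VC libraries and 1370.3, 1440.2 and 1685 in the OE libraries, a change of 1.61 ± 0.14. MMP14, which activates MMP2 at the cell surface, fell from 2285 ± 43.7 CPM in WT to 922 ± 17.8 in OE cells, with 561 ± 20.3 in VC cells (log2 change -1.31 ± 0.09). TIMP1, an inhibitor, fell from 357 ± 28.1 CPM in WT to 168 ± 21.9 in OE cells, with 192 ± 9.48 in VC cells (log2 change -1.08 ± 0.17). MMP9 had 604, 47 and 2 reads in WT, VC and OE cells, a ratio of WT to OE of 283-fold (95% counting interval 78.0 to 2341), and its WT libraries ranged from 5.80 to 20.1 CPM. In the plasminogen system 3 of 20 rose (15%) and 7 fell (35%). PLAU, or urokinase, fell from 106 ± 0.962 CPM in WT to 13.1 ± 2.01 in OE cells, with 182 ± 10.03 in VC cells (log2 change -3.02 ± 0.097). PLAT, the tissue activator, fell from 104 ± 4.55 CPM in WT to 23.5 ± 3.01 in OE cells, with 746 ± 58.3 in VC cells (log2 change -2.14 ± 0.10), with VC far above both. SERPINF1, the antiangiogenic factor PEDF that RPE cells secrete, fell from 20.4 ± 3.71 CPM in WT to 1.05 ± 0.315 in OE cells, with 9.01 ± 0.744 in VC cells. Of 30 proteoglycan genes 7 rose (23.3%) and 11 fell (36.7%). SDC1, a syndecan of epithelia, fell from 133 ± 8.28 CPM in WT to 10.3 ± 0.132 in OE cells, with 33.0 ± 0.592 in VC cells. SDC3 fell from 551 ± 15.4 CPM in WT to 92.8 ± 2.40 in OE cells, with 138 ± 3.73 in VC cells. GPC1, a glypican, fell from 338 ± 6.47 CPM in WT to 139 ± 3.73 in OE cells, with 321 ± 5.43 in VC cells, and GPC3 had 0, 576 and 768 reads in WT, VC and OE cells. CEMIP, which degrades hyaluronan, fell from 155 ± 13.5 CPM in WT to 1.83 ± 0.924 in OE cells, with 1.05 ± 0.212 in VC cells.

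Of 52 cytoskeletal and contractile genes 10 rose (19.2%) and 15 fell (28.8%), beside 13.9% and 15.3% of protein-coding genes. Some genes known from smooth muscle were among those that rose and others were not. MYOCD, or myocardin, the coactivator that turns on smooth muscle genes with SRF, stood at 0.0549, 0.153 and 0 CPM in the WT libraries, 0.383, 0.501 and 0.925 in the VC libraries and 13.4, 12.9 and 11.6 in the OE libraries. OE libraries did not overlap the others, and the changes were 7.22 ± 0.45 (edgeR adjusted p = 1.10e-12) and 4.39 ± 0.33 against VC cells. TAGLN, a smooth muscle actin-binding protein, stood at 200.2, 215 and 243 CPM in the WT libraries, 191, 174 and 189 in the VC libraries and 1102, 1089.6 and 1010.2 in the OE libraries, a change of 2.28 ± 0.11. LMOD1, the leiomodin of smooth muscle, rose from 4.10 ± 0.108 CPM in WT to 36.6 ± 2.65 in OE cells, with 5.21 ± 0.876 in VC cells (log2 change 3.15 ± 0.17). ACTC1, cardiac actin, rose from 18.3 ± 1.38 CPM in WT to 55.5 ± 1.004 in OE cells, with 1.30 ± 0.284 in VC cells (log2 change 1.602 ± 0.13), where VC cells were lower than WT. ACTA2, smooth muscle actin, was at 86.3 ± 3.26, 33.0 ± 2.80 and 102 ± 10.1 CPM in WT, VC and OE cells (log2 change 0.24 ± 0.09, edgeR adjusted p = 0.0452) and MYH11, smooth muscle myosin, at 0.165 ± 0.116, 0.185 ± 0.0822 and 0.0807 ± 0.0259 CPM in WT, VC and OE cells (log2 change -0.88 ± 0.84, edgeR adjusted p = 0.523). In the other direction CSRP1, a LIM protein also known from smooth muscle, fell from 132 ± 11.9 CPM in WT to 5.58 ± 0.913 in OE cells, with 32.5 ± 2.77 in VC cells (log2 change -4.55 ± 0.11). MYLK, the myosin light chain kinase, fell from 623 ± 12.6 CPM in WT to 329 ± 9.40 in OE cells, with 330.2 ± 20.1 in VC cells (log2 change -0.92 ± 0.07).

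Targets of YAP and TAZ, the coactivators of the Hippo pathway, had 9 of 27 higher and 5 lower. IGFBP3, which binds insulin-like growth factors, stood at 444, 481 and 418 CPM in the WT libraries, 638, 623 and 595 in the VC libraries and 2499, 2448 and 2254 in the OE libraries, a change of 2.42 ± 0.081 (edgeR adjusted p = 1.67e-20). WWC1, an inhibitor of YAP that its activity induces, rose from 82.5 ± 0.841 CPM in WT to 168 ± 10.6 in OE cells, with 122 ± 4.60 in VC cells (log2 change 1.03 ± 0.087). TGFB2 rose from 478 ± 14.3 CPM in WT to 659 ± 7.44 in OE cells, with 371 ± 9.64 in VC cells (log2 change 0.46 ± 0.08). MYOF, a ferlin of membrane repair, fell from 552 ± 12.2 CPM in WT to 191 ± 7.48 in OE cells, with 228 ± 15.8 in VC cells (log2 change -1.53 ± 0.082). F3, tissue factor, fell from 466 ± 23.6 CPM in WT to 251 ± 8.70 in OE cells, with 251 ± 8.88 in VC cells (log2 change -0.89 ± 0.064). CRYAB, a small heat shock protein of lens and RPE, stood at 488, 548 and 595 CPM in the WT libraries, 1325, 1311 and 1183 in the VC libraries and 4663, 4609 and 4789 in the OE libraries; the 3 lines did not overlap and its change was 3.11 ± 0.10.

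Cadherins and desmosome genes had 11 of 35 higher and 5 lower. CDH17, the cadherin of intestine and liver, stood at 0.713, 0.763 and 1.22 CPM in the WT libraries, 43.1, 46.2 and 37.3 in the VC libraries and 228, 230.2 and 218 in the OE libraries. The order WT, VC, OE had no overlap, and the OE minus WT change was 8.003 ± 0.15 (edgeR adjusted p = 6.20e-26). DSC1, a desmocollin of upper epidermis, rose from 0.825 ± 0.173 CPM in WT to 49.3 ± 4.03 in OE cells, with 7.42 ± 0.858 in VC cells (log2 change 5.91 ± 0.19). JUP, or plakoglobin, rose from 24.9 ± 1.86 CPM in WT to 113 ± 7.06 in OE cells, with 61.2 ± 4.62 in VC cells (log2 change 2.18 ± 0.19). CDH11, a mesenchymal cadherin, fell from 353 ± 8.51 CPM in WT to 211 ± 1.81 in OE cells, with 111 ± 4.25 in VC cells (log2 change -0.74 ± 0.06). TP63, the master factor of stratified epithelia, rose from 9.53 ± 0.990 CPM in WT to 46.5 ± 1.74 in OE cells, with 3.57 ± 0.563 in VC cells (log2 change 2.29 ± 0.13). Keratins had 8 of 34 higher and 3 lower. KRT80 rose from 296 ± 6.48 CPM in WT to 696 ± 24.8 in OE cells, with 274 ± 10.1 in VC cells. KRT18, of simple epithelia, rose from 233 ± 17.0 CPM in WT to 392.1 ± 11.01 in OE cells, with 917 ± 64.8 in VC cells. KRT86 rose from 2.79 ± 0.517 CPM in WT to 19.5 ± 1.78 in OE cells, with 6.62 ± 0.661 in VC cells, while its near copy KRT81 fell from 1799 ± 74.8 CPM in WT to 1.47 ± 0.0872 in OE cells, with 2.93 ± 0.559 in VC cells. Reads of 50 bases may be split between them. Of 22 genes of mesenchymal transition 3 rose (13.6%) and 6 fell (27.3%), beside 13.9% and 15.3% of protein-coding genes. ZEB1, a repressor of epithelial genes, fell from 45.3 ± 3.28 CPM in WT to 21.6 ± 1.57 in OE cells, with 42.0 ± 2.13 in VC cells. SNAI1, another, fell from 6.26 ± 0.718 CPM in WT to 1.80 ± 0.235 in OE cells, with 8.58 ± 1.59 in VC cells. CDH2, or N-cadherin, was among those that rose, from 532 ± 22.3 CPM in WT to 636 ± 23.2 in OE cells, with 167 ± 14.4 in VC cells, a call lost without OE library 1 or 2 or WT library 2 or 3.

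Beside 13.9% and 15.3% of protein-coding genes, TGF-beta and BMP genes had 13 of 46 higher (28.3%) and 9 lower (19.6%). Several that rose belong to the BMP branch, whose ligands act through SMAD1 and induce ID genes. BMP6 stood at 2.80, 2.75 and 2.01 CPM in the WT libraries, 119, 121 and 101 in the VC libraries and 243, 229 and 223 in the OE libraries, with the lines in the order WT, VC, OE and a change of 6.499 ± 0.14 (edgeR adjusted p = 3.89e-25). GDF6, an eye-forming ligand of this branch, rose from 0.736 ± 0.187 CPM in WT to 26.2 ± 2.84 in OE cells, with 8.45 ± 2.13 in VC cells (log2 change 5.14 ± 0.28). BMPER, a secreted modulator, rose from 6.28 ± 0.535 CPM in WT to 42.1 ± 7.68 in OE cells, with 14.01 ± 1.64 in VC cells (log2 change 2.75 ± 0.15). Of the targets, ID4 stood at 3.62, 3.76 and 2.72 CPM in the WT libraries, 4.02, 4.36 and 2.84 in the VC libraries and 44.9, 51.5 and 50.5 in the OE libraries. WT and VC libraries overlapped, and OE was above both by 3.84 ± 0.19 and 3.69 ± 0.19. ID2 rose from 9.33 ± 1.81 CPM in WT to 41.0 ± 2.65 in OE cells, with 31.6 ± 1.92 in VC cells (log2 change 2.15 ± 0.17). OE and VC did not pass the test for ID2 (log2 difference 0.37, edgeR adjusted p = 0.0648). Whether BMP ligands moved the ID genes was not tested. SMAD6, an inhibitory SMAD, rose from 32.6 ± 4.09 CPM in WT to 77.2 ± 4.30 in OE cells, with 23.1 ± 4.19 in VC cells (log2 change 1.24 ± 0.18). The TGF-beta branch moved in both directions. TGFB1 fell from 409 ± 37.7 CPM in WT to 185 ± 16.01 in OE cells, with 302 ± 20.5 in VC cells. Its receptor TGFBR2 fell from 184 ± 2.43 CPM in WT to 79.9 ± 3.85 in OE cells, with 263 ± 3.56 in VC cells. The ligand TGFB2, given above among the YAP and TAZ targets, rose.

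WNT genes had 8 of 49 higher (16.3%) and 15 lower (30.6%), beside 13.9% and 15.3% of protein-coding genes. WNT2B, a ligand of the developing ciliary margin of the retina, stood at 3.84, 4.58 and 5.88 CPM in the WT libraries, 39.1, 39.4 and 29.3 in the VC libraries and 141, 142 and 140.2 in the OE libraries, a change of 4.90 ± 0.15 (edgeR adjusted p = 1.64e-20). LGR4, a receptor for R-spondins, rose from 37.3 ± 4.85 CPM in WT to 248 ± 1.15 in OE cells, with 79.8 ± 4.96 in VC cells (log2 change 2.73 ± 0.092) and lies on the stretch of chromosome 11. SFRP1, a secreted inhibitor, fell from 321 ± 11.1 CPM in WT to 79.2 ± 2.17 in OE cells, with 29.0 ± 3.42 in VC cells (log2 change -2.02 ± 0.079). LEF1, a nuclear mediator, fell from 24.7 ± 0.922 CPM in WT to 2.09 ± 0.244 in OE cells, with 6.87 ± 0.527 in VC cells (log2 change -3.55 ± 0.16). FZD8, a receptor, fell from 27.7 ± 2.72 CPM in WT to 4.37 ± 0.508 in OE cells, with 3.48 ± 0.142 in VC cells (log2 change -2.66 ± 0.14). ROR2, a receptor for WNT5A, fell from 9.67 ± 0.887 CPM in WT to 0.390 ± 0.284 in OE cells, with 5.58 ± 0.593 in VC cells. Guidance genes, which steer axons and vessels, had 18 of 71 higher and 27 lower. SEMA6B fell from 61.2 ± 12.5 CPM in WT to 6.77 ± 0.483 in OE cells, with 111 ± 11.4 in VC cells. UNC5B, a netrin receptor of vessels, rose from 2.80 ± 0.209 CPM in WT to 69.0 ± 4.33 in OE cells, with 20.6 ± 3.75 in VC cells, SLIT3 from 236 ± 15.2 CPM in WT to 622 ± 26.1 in OE cells, with 192 ± 22.5 in VC cells and EFNB2, an ephrin of arteries, from 42.7 ± 5.78 CPM in WT to 148 ± 8.30 in OE cells, with 86.0 ± 6.9997 in VC cells.

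Among ERBB receptors and ligands 6 of 16 rose and 3 fell. ERBB4, a neuregulin receptor, stood at 11.5, 10.9 and 9.82 CPM in the WT libraries, 15.0, 17.3 and 15.3 in the VC libraries and 56.6, 58.9 and 63.3 in the OE libraries, a change of 2.47 ± 0.12 (edgeR adjusted p = 1.87e-16). EGFR rose from 277 ± 10.4 CPM in WT to 552 ± 18.5 in OE cells, with 603 ± 44.3 in VC cells (log2 change 0.997 ± 0.12) and its ligand TGFA from 54.1 ± 1.90 CPM in WT to 105 ± 9.07 in OE cells, with 77.7 ± 4.42 in VC cells (log2 change 0.95 ± 0.077). OE and VC libraries overlapped for EGFR. ERRFI1, a feedback inhibitor of EGFR, fell from 138 ± 5.42 CPM in WT to 33.7 ± 1.15 in OE cells, with 875 ± 40.1 in VC cells (log2 change -2.03 ± 0.07). Of 27 genes of VEGF, PDGF, FGF and angiopoietin signalling 3 rose and 13 fell. NRP1, a coreceptor for VEGF and semaphorins, stood at 151, 151 and 133 CPM in the WT libraries, 275, 252 and 259.8 in the VC libraries and 13.8, 14.4 and 14.8 in the OE libraries, with OE libraries below WT and VC above. VEGFC, which acts on lymphatic vessels, fell from 27.998 ± 4.20 CPM in WT to 11.7 ± 0.792 in OE cells, with 11.4 ± 1.27 in VC cells (log2 change -1.26 ± 0.13). FGF5 fell from 564 ± 23.4 CPM in WT to 268 ± 13.2 in OE cells, with 93.5 ± 2.76 in VC cells. PDGFC fell from 373 ± 12.6 CPM in WT to 226 ± 13.0 in OE cells, with 212 ± 8.71 in VC cells. Immediate early and feedback genes had 7 of 38 higher and 15 lower. JUNB rose from 71.2 ± 1.98 CPM in WT to 263 ± 10.96 in OE cells, with 72.2 ± 6.66 in VC cells. DUSP1, a phosphatase of stress kinases, rose from 89.4 ± 0.210 CPM in WT to 209.7 ± 6.04 in OE cells, with 88.0 ± 4.11 in VC cells. PHLDA1 fell from 198 ± 7.99 CPM in WT to 81.1 ± 1.26 in OE cells, with 402 ± 3.72 in VC cells.

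Cell cycle and replication genes had 4 of 57 higher and 22 lower, with a median log2 change of -0.28. TYMS, the thymidylate synthase, stood at 101, 103 and 91.8 CPM in the WT libraries, 99.4, 101 and 105 in the VC libraries and 51.1, 53.9 and 43.4 in the OE libraries, a change of -0.99 ± 0.10 (edgeR adjusted p = 3.48e-09). WT and VC libraries overlapped for TYMS, and OE was below both. MCM6, a subunit of the replicative helicase, fell from 72.3 ± 6.87 CPM in WT to 41.0 ± 6.51 in OE cells, with 72.3 ± 2.43 in VC cells (log2 change -0.82 ± 0.11). MCM5 fell from 68.5 ± 3.24 CPM in WT to 42.7 ± 2.57 in OE cells, with 88.3 ± 7.05 in VC cells (log2 change -0.68 ± 0.091). FOXM1, the activator of mitotic genes, fell from 53.3 ± 3.47 CPM in WT to 33.4 ± 4.79 in OE cells, with 37.7 ± 0.444 in VC cells (log2 change -0.67 ± 0.11). CDK6 rose from 162 ± 21.95 CPM in WT to 259 ± 19.5 in OE cells, with 187 ± 11.8 in VC cells (log2 change 0.67 ± 0.11). CDKN2B, an inhibitor of it, rose from 191 ± 2.16 CPM in WT to 301 ± 16.1 in OE cells, with 43.03 ± 2.40 in VC cells. CDKN1A, or p21, fell from 549 ± 15.2 CPM in WT to 399.6 ± 27.96 in OE cells, with 249.9 ± 5.26 in VC cells, a call lost without OE library 1 or 2 or WT library 3. Histone genes were not called higher (0 of 46 by edgeR, DESeq2 or limma-voom, 4 at an unadjusted p under 0.05) and 1 was lower, while 21 were higher in VC cells.

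Beside 13.9% and 15.3% of protein-coding genes, stress genes had 2 of 40 higher (5%) and 14 lower (35%). Those of the integrated stress response, which ATF4 turns on when amino acids or protein folding fail, were among them. TRIB3 stood at 40.2, 43.3 and 48.2 CPM in the WT libraries, 19.4, 19.9 and 17.8 in the VC libraries and 9.38, 10.8 and 11.2 in the OE libraries, a change of -2.07 ± 0.16 (edgeR adjusted p = 2.08e-10). SESN2 fell from 49.5 ± 2.74 CPM in WT to 18.5 ± 2.44 in OE cells, with 14.4 ± 0.175 in VC cells (log2 change -1.42 ± 0.15). PSAT1, of serine synthesis, fell from 66.6 ± 5.89 CPM in WT to 47.0 ± 3.14 in OE cells, with 96.1 ± 6.11 in VC cells (log2 change -0.50 ± 0.094). SLC7A11, the cystine importer, fell from 49.6 ± 7.55 CPM in WT to 15.7 ± 0.472 in OE cells, with 65.1 ± 9.41 in VC cells (log2 change -1.66 ± 0.16). CREB3L1, a membrane-bound transcription factor, fell from 78.7 ± 13.4 CPM in WT to 6.14 ± 0.448 in OE cells, with 20.3 ± 1.30 in VC cells (log2 change -3.68 ± 0.14) although it lies on the stretch of chromosome 11 where most genes rose. SLC7A5, an importer of large amino acids, rose from 415 ± 14.4 CPM in WT to 608 ± 0.839 in OE cells, with 890.0 ± 47.1 in VC cells. NRF2 targets and antioxidant genes had 8 of 43 higher (18.6%) and 16 lower (37.2%). NQO1, a classical target, fell from 217 ± 6.43 CPM in WT to 97.8 ± 6.24 in OE cells, with 307 ± 12.7 in VC cells, but HMOX1, which degrades haem, rose from 117 ± 9.75 CPM in WT to 229 ± 10.6 in OE cells, with 163 ± 12.4 in VC cells. SOD3, the extracellular superoxide dismutase, fell from 288 ± 16.6 CPM in WT to 39.6 ± 4.10 in OE cells, with 23.3 ± 2.56 in VC cells and GPX3, a secreted glutathione peroxidase, rose from 378 ± 30.1 CPM in WT to 844 ± 39.3 in OE cells, with 259 ± 3.13 in VC cells. Among iron genes, 3 of 25 rose (12%) and 8 fell (32%). FTL, the ferritin light chain, fell from 2143 ± 189 CPM in WT to 1066 ± 91.7 in OE cells, with 4213 ± 247 in VC cells, and CP, or ceruloplasmin, rose from 29.1 ± 0.511 CPM in WT to 119.5 ± 32.1 in OE cells, with 124.2 ± 2.83 in VC cells. Lysosomal genes had 6 of 65 higher (9.23%) and 19 lower (29.2%), beside 13.9% and 15.3% of protein-coding genes. PSAP, the precursor of the saposins, fell from 7321 ± 385 CPM in WT to 4577 ± 50.8 in OE cells, with 3501 ± 62.3 in VC cells. CTSK, a cathepsin that cuts collagen, rose from 11.9 ± 1.84 CPM in WT to 111 ± 2.66 in OE cells, with 88.5 ± 1.90 in VC cells.

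Of the genes that define RPE, OTX2 and MITF were well expressed and RPE65 was not. OTX2, a transcription factor of RPE fate, fell from 131 ± 5.998 CPM in WT to 102 ± 2.02 in OE cells, with 36.6 ± 0.868 in VC cells (log2 change -0.37 ± 0.077). MITF, another, was not called, at 158 ± 3.99, 54.6 ± 5.99 and 151 ± 7.97 CPM in WT, VC and OE cells. BEST1, a further RPE marker, was not called either, with means of 29.2, 35.0 and 30.0 CPM in WT, VC and OE cells. Some other RPE markers, TYR, TJP1 and KRT8 among them, are not reported here. RPE65, the isomerase of the visual cycle, was low in WT cells and fell from 1.13 ± 0.330 CPM in WT to 0.146 ± 0.0755 in OE cells, with 0.192 ± 0.0617 in VC cells (log2 change -2.90 ± 0.75). Its OE levels were at or below what a count of 0 allows, and its call was lost without any 1 of the OE libraries or WT library 3. Of 30 retinoid genes 13 rose and 8 fell. RLBP1, the retinaldehyde carrier of RPE, stood at 4.22, 3.10 and 4.66 CPM in the WT libraries, 17.2, 16.2 and 15.5 in the VC libraries and 51.3, 48.1 and 55.3 in the OE libraries, a change of 3.70 ± 0.16. ALDH1A3, which makes retinoic acid, rose from 336 ± 10.2 CPM in WT to 932 ± 25.5 in OE cells, with 315 ± 27.0 in VC cells (log2 change 1.47 ± 0.069), CYP26B1, which degrades it, fell from 22.9 ± 1.15 CPM in WT to 7.30 ± 0.718 in OE cells, with 12.4 ± 0.686 in VC cells (log2 change -1.65 ± 0.14), and RARRES2, the chemoattractant chemerin, fell from 3607 ± 525 CPM in WT to 1414 ± 131 in OE cells, with 408 ± 9.36 in VC cells. CMKLR1, the receptor for chemerin, fell from 26.3 ± 2.41 CPM in WT to 0.205 ± 0.0923 in OE cells, with 0.0433 ± 0.0375 in VC cells. Melanosome genes had 3 of 27 higher and 9 lower. TYRP1, of melanin synthesis, fell from 62.7 ± 10.5 CPM in WT to 3.95 ± 1.48 in OE cells, with 8.56 ± 0.859 in VC cells. GPNMB, a melanosome and lysosome protein, fell from 2973 ± 173 CPM in WT to 1589 ± 73.2 in OE cells, with 643 ± 29.8 in VC cells. PAX6, the eye field factor on chromosome 11, stood at 115, 109.7 and 113 CPM in the WT libraries, 106, 104 and 112 in the VC libraries and 290.2, 292 and 320.1 in the OE libraries. VC and WT overlapped for PAX6, and OE was above both by 1.42 ± 0.095 and 1.49 ± 0.095. Markers of other cell types ranged widely. The 13 endothelial markers measured summed to 57.5 to 67.5 in WT, 66.8 to 72.7 in VC and 16.8 to 18.3 in OE libraries (CPM), with 4 called lower and 0 higher (0 by DESeq2 and limma-voom, 0 at an unadjusted p under 0.05). The defining markers PECAM1 and CDH5 had 1, 113 and 0 reads and 2, 2 and 1 reads in WT, VC and OE cells. The 7 leukocyte markers measured summed to 4.37 to 5.05 in WT, 7.21 to 9.43 in VC and 13.9 to 15.9 in OE libraries, with 1 called higher, CSF1R, at 4.12 ± 0.369, 2.08 ± 0.518 and 14.3 ± 0.939 CPM in WT, VC and OE cells, and PTPRC was not measured above the filter. Epithelial markers summed to 1726 to 2042 in WT, 2531 to 2755 in VC and 3153 to 3593 in OE libraries, with 4 of 14 called higher and 0 lower (0 by DESeq2 and limma-voom, 0 at an unadjusted p under 0.05). In WT and OE cells most of this sum was KRT7, a keratin of simple epithelia, which rose from 1317 ± 148 CPM in WT to 2525 ± 247 in OE cells, with 742 ± 71.5 in VC cells, while EPCAM, a defining marker, had 0, 131 and 0 reads in WT, VC and OE cells. Fibroblast markers summed to 647 to 655 in WT, 188 to 198 in VC and 751 to 794 in OE libraries, with 2 of 11 higher and 1 lower. Markers of retinal neurons and glia summed to 284 to 311 in WT, 252 to 283 in VC and 246 to 253 in OE libraries, with 2 of 10 lower and 0 higher (0 by DESeq2 and limma-voom, 0 at an unadjusted p under 0.05). Melanocyte markers, several of which RPE cells share, summed to 74.0 to 97.0 in WT, 17.7 to 20.2 in VC and 16.1 to 17.6 in OE libraries, with 4 of 7 lower, TYRP1 among them, and 0 higher by edgeR (1 by DESeq2 and limma-voom, 1 at an unadjusted p under 0.05), and a median log2 change of -1.78. The defining marker MLANA had 1, 0 and 0 reads in WT, VC and OE cells. The part of any admixed cell type in the results was not tested.

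Some of the largest changes were of genes at or near 0 in 1 line. Of the genes that rose, 316 had 3 or fewer reads in each WT library and 24 of these reached 10 CPM in OE cells. Of the genes that fell, 153 had 3 or fewer reads in each OE library, and 1 of these was at 10 CPM or more in WT cells. COBL, an actin nucleator, had 0, 450 and 502 reads in WT, VC and OE cells and CTNND2, a neuronal catenin, had 0, 91 and 682 reads. OE was at least 179-fold and at least 243-fold above WT, taking 3 reads over the WT group as the limit. OE and VC did not pass the test for COBL (edgeR adjusted p = 0.381), and CTNND2 was higher in OE than in VC cells (edgeR adjusted p = 2.08e-07). SLC2A10, a glucose transporter, had 1, 1730 and 815 reads, a ratio of OE to WT of 870.0-fold (95% counting interval 156 to 34404). PDZRN3, a ubiquitin ligase, rose from 0.118 ± 0.0221 CPM in WT to 74.6 ± 6.28 in OE cells, with 23.4 ± 4.05 in VC cells (log2 change 9.24 ± 0.27).

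Genes that differed from both WT and VC cells in the same direction were ranked by the smaller of the 2 changes. They include EMP2, ID4, MYOCD, MGP and FBLN2, which are described above, and the genes that follow. NPPB, the natriuretic peptide of heart muscle, rose from 1.596 ± 0.480 CPM in WT to 64.6 ± 6.80 in OE cells, with 5.76 ± 0.582 in VC cells (log2 change 5.37 ± 0.33). EDN2, an endothelin, rose from 0.124 ± 0.0824 CPM in WT to 22.5 ± 2.59 in OE cells, with 1.45 ± 0.315 in VC cells (log2 change 7.503 ± 0.42). IGFN1, a protein known from skeletal muscle, had 3, 197 and 2616 reads in WT, VC and OE cells. SERPINE3, a serpin that few tissues express, had 3, 6 and 491 reads, a ratio of OE to WT of 175-fold (95% counting interval 59.4 to 850.1). In the lower direction DNER, a Notch ligand of neurons, stood at 14.9, 14.2 and 19.3 CPM in the WT libraries, 8.94, 8.37 and 7.34 in the VC libraries and 0.311, 0.276 and 0.139 in the OE libraries. GALNT6, which starts mucin-type glycans, fell from 9.96 ± 1.86 CPM in WT to 0.106 ± 0.0449 in OE cells, with 24.4 ± 1.95 in VC cells (log2 change -6.50 ± 0.27). COL13A1, a transmembrane collagen, fell from 5.72 ± 0.442 CPM in WT to 0.143 ± 0.0208 in OE cells, with 29.1 ± 0.665 in VC cells (log2 change -5.24 ± 0.24). SDK1, a synaptic adhesion protein, fell from 49.4 ± 1.21 CPM in WT to 1.18 ± 0.558 in OE cells, with 20.2 ± 1.41 in VC cells. PREX1, an activator of RAC, fell from 17.8 ± 0.577 CPM in WT to 0.486 ± 0.120 in OE cells, with 8.72 ± 1.68 in VC cells, PID1 from 31.7 ± 0.626 CPM in WT to 2.02 ± 0.564 in OE cells, with 31.4 ± 2.10 in VC cells and ALDH1L1, of folate metabolism, from 8.27 ± 1.14 CPM in WT to 0.512 ± 0.102 in OE cells, with 17.6 ± 0.557 in VC cells.

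Other genes were called against WT cells while OE and VC did not pass the test and lay within 0.5 on the log2 scale. AJAP1, a junction protein, stood at 0, 0.203 and 0 CPM in the WT libraries, 40.9, 41.4 and 38.9 in the VC libraries and 45.0, 43.9 and 44.7 in the OE libraries, with OE minus VC at 0.14 ± 0.14 (edgeR adjusted p = 0.465). MGMT, which repairs alkylated guanine, rose from 0.569 ± 0.253 CPM in WT to 13.9 ± 1.87 in OE cells, with 16.8 ± 0.842 in VC cells (log2 change 4.66 ± 0.25), BEX2 from 0.222 ± 0.154 CPM in WT to 13.4 ± 0.966 in OE cells, with 9.92 ± 0.918 in VC cells (log2 change 5.93 ± 0.32), and PDE4A, a phosphodiesterase of cyclic AMP, from 0.456 ± 0.130 CPM in WT to 12.6 ± 0.513 in OE cells, with 10.3 ± 0.243 in VC cells (log2 change 4.74 ± 0.23). PLEKHA7, a protein of adherens junctions, rose from 5.04 ± 0.424 CPM in WT to 57.9 ± 1.04 in OE cells, with 53.6 ± 0.583 in VC cells (log2 change 3.53 ± 0.12) and lies on chromosome 11. In the lower direction COLEC12, a scavenger receptor, stood at 64.6, 70.4 and 66.3 CPM in the WT libraries, 1.47, 2.36 and 1.19 in the VC libraries and 2.11, 2.26 and 2.30 in the OE libraries, with OE minus VC at 0.37 ± 0.20 (edgeR adjusted p = 0.163). AK5, an adenylate kinase of neurons, fell from 51.9 ± 2.90 CPM in WT to 4.48 ± 0.371 in OE cells, with 3.64 ± 0.930 in VC cells. GALNT16, another enzyme of mucin-type glycans, fell from 36.0 ± 1.58 CPM in WT to 3.08 ± 0.713 in OE cells, with 2.266 ± 0.440 in VC cells. Such a p does not show that OE and VC cells were alike, only that no difference passed.

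Changes were also described by position on the chromosomes. The 12270 protein-coding genes with at least 1 CPM in WT or OE cells were placed in 310 blocks of 35 to 42 neighbours. In the first 8 of the 18 blocks of chromosome 11, from BET1L to PRDX5 (chr11:167784-64321811, GRCh38), the median log2 change of OE minus WT was 0.51 to 0.63 in each block. In the other 302 blocks of the genome it was -0.26 to 0.28. Of the 320 genes of the 8 blocks, 204 rose (63.8%) and 24 fell, against 14.9% and 18.6% of the 11557 genes on other chromosomes. Their median was 0.55 with quartiles of 0.26 and 0.76, and 85.3% lay above 0. On the rest of chromosome 11, 65 of 393 genes rose and 83 fell, with a median of -0.02. Because blocks were looked at before the stretch was chosen, these values are a description and carry no test.

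The shift was in every OE library and also in the VC line. Against the WT mean, the median over the 320 genes was 0.52, 0.55 and 0.56 in the 3 OE libraries and 0.46, 0.43 and 0.45 in the VC libraries. KD libraries in normoxia were at -0.01, 0.02 and -0.01, and hypoxic WT libraries at -0.04, -0.03 and -0.02. Hypoxic OE libraries were at 0.24, 0.54 and 0.47, the first of which also had a median of -0.15 over the other chromosomes. VC minus WT was 0.45 over the stretch and -0.25 over the rest of chromosome 11, whereas OE minus VC was 0.11 and 0.23. Members include EIF4G2, a translation factor, which rose from 1278 ± 5.11 CPM in WT to 2069 ± 37.7 in OE cells, with 1778 ± 25.4 in VC cells (log2 change 0.69 ± 0.057). CD151, a tetraspanin partner of integrins, rose from 633 ± 35.0 CPM in WT to 1089 ± 1.48 in OE cells, with 594 ± 7.14 in VC cells (log2 change 0.78 ± 0.10). CD44, the receptor for hyaluronan, rose from 732 ± 12.8 CPM in WT to 1123 ± 13.9 in OE cells, with 808 ± 7.27 in VC cells (log2 change 0.62 ± 0.062). RPL27A and RPLP2, ribosomal proteins, rose from 411 ± 11.99 CPM in WT to 659 ± 20.7 in OE cells, with 377 ± 13.1 in VC cells (log2 change 0.68 ± 0.092) and from 581 ± 30.97 CPM in WT to 834 ± 35.7 in OE cells, with 516 ± 29.9 in VC cells. The call of RPLP2 was lost without any 1 of the 6 libraries. OLFML1, an olfactomedin-like secreted protein, had 0, 8 and 51 reads in WT, VC and OE cells. KIAA1549L was among the 24 that fell, from 6.32 ± 0.0264 CPM in WT to 0.106 ± 0.0449 in OE cells, with 2.90 ± 0.379 in VC cells. The part of gene copy number in these values was not tested.

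**Figure D5:**
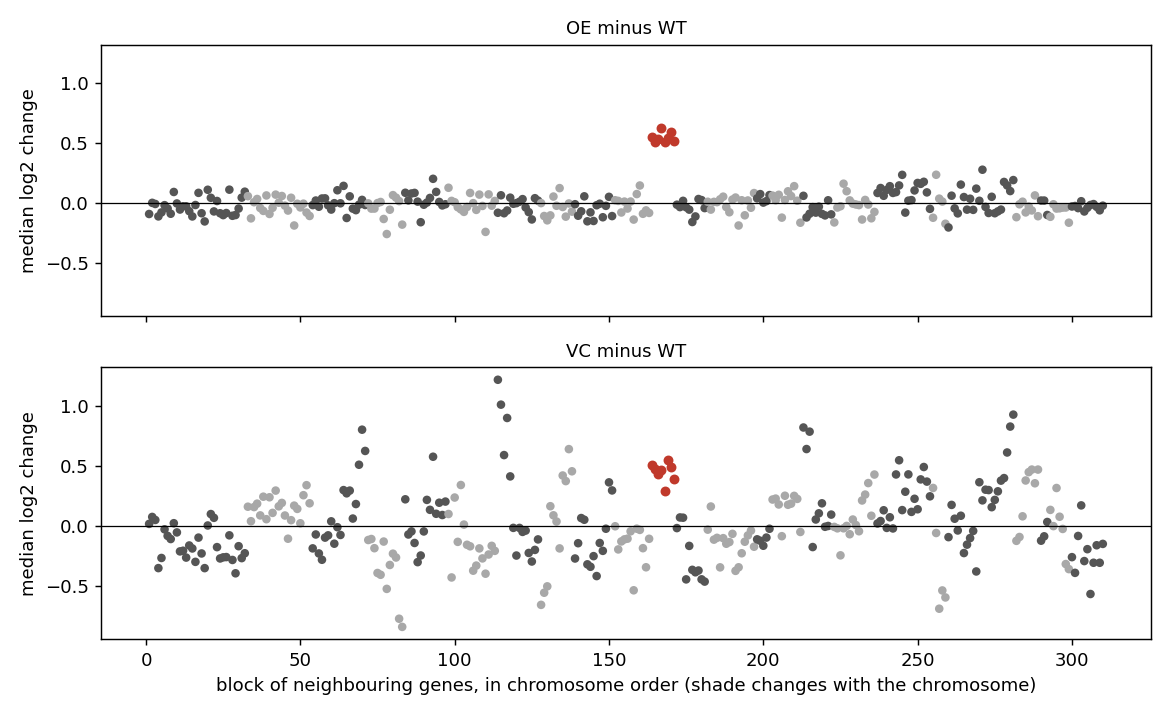
Points are the 310 blocks of 35 to 42 neighbouring genes in chromosome order (x axis, block number), and the y axis gives the median log2 change of OE minus WT (upper panel) and VC minus WT (lower panel). The first 8 blocks of chromosome 11, in red, are at 0.51 to 0.63 in the upper panel, where all others lie between -0.26 and 0.28. In the lower panel they are at 0.29 to 0.54, and the other blocks spread from -0.84 to 1.22.

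Of 78 ribosomal protein genes 5 rose (6.41%) and 1 fell (1.28%), and 3 of those that rose lie on the stretch of chromosome 11. VC cells had 1 higher and 48 lower than WT cells, and OE against VC cells 49 higher and 0 lower. Zinc finger genes of the ZNF series had 92 of 496 higher (18.5%, beside 9.48% of all genes tested and 13.9% of protein-coding genes). Lower were 24 (4.84%, beside 10.2% and 15.3%), and the median was 0.13. Of 18 cancer-testis genes 0 were called by edgeR or DESeq2, limma-voom called 1 higher, and 1 was higher and 1 lower at an unadjusted p under 0.05. Tight junction genes had 3 of 32 higher (9.38%) and 6 lower (18.8%), and Notch genes 3 of 27 higher (11.1%) and 5 lower (18.5%). Both were near the 13.9% and 15.3% of protein-coding genes.

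The series also asks whether EMP2 alters the response to low oxygen, and the change of OE minus WT was therefore compared between hypoxia and normoxia for EMP2, HIF1A, VEGFA, VHL, VCP and MT-RNR1. For HIF1A the change was larger in hypoxia by 0.58 ± 0.11 on the log2 scale (edgeR adjusted p = 4.03e-04). HIF1A stood in hypoxia at 281, 257 and 289 CPM in the WT libraries and 683, 609 and 809 in the OE libraries. All of these were below the normoxic levels of the same line given above. For VEGFA the difference was -1.24 ± 0.12 (edgeR adjusted p = 2.17e-08). The direction turned: VEGFA was higher in OE than in WT cells in normoxia, a call that rests on single libraries as given above, and lower in hypoxia. There it stood at 1201, 1292 and 1232 CPM in the WT libraries and 569, 633 and 771 in the OE libraries, a change of -0.92 ± 0.087 (edgeR adjusted p = 4.82e-10), with -0.82 ± 0.076 without the first hypoxic OE library. For EMP2 it was 0.33 ± 0.12 and did not pass the test (edgeR adjusted p = 0.0767), but it was 0.43 ± 0.10 and passed without the first hypoxic OE library (edgeR adjusted p = 6.78e-04). VCP was likewise at 0.32 ± 0.11 with it (adjusted p = 0.0544) and 0.33 ± 0.09 without it (edgeR adjusted p = 8.87e-03). VHL and MT-RNR1 did not pass in either, with differences of 0.13 ± 0.13 and -0.14 ± 0.18 over all libraries.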

How the data were processed

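RNA was sequenced from ARPE-19 cells as single reads of 50 bases after ribosomal RNA depletion. Per the file headers and the submitters' processing notes, the authors aligned reads with STAR to GRCh38 with an Ensembl annotation, and the deposited table holds raw counts per gene. The study's methods also name a UCSC transcript set, and whether the counting used strand is not given in the sources used here. Sense and antisense genes therefore cannot be told apart. The processing notes also name bcl2fastq 2.17, Partek, edgeR and DESeq2 1.26.0. A deposited table of TMM-normalised values was not used, since each of its columns was the raw counts times 1 factor. Totals were 10796813 to 19779450 counts over the 24 libraries.

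Genes with at least 10 counts over all libraries (24873 of 60623) were fitted with edgeR 4.0.16 in R 4.3.3: TMM scaling, 8 groups of line and oxygen, 3 libraries each, robust quasi-likelihood test, two-sided, Benjamini-Hochberg adjustment over all genes and a threshold of 0.01. CPM used TMM-scaled library sizes. Gene types came from GENCODE, and symbols altered to dates in the deposited table were restored by gene identifier. Intervals are at 95% and cover counting error only. DESeq2 1.42.0 and limma 3.58.1 were alternatives, as were other scalings, filters, thresholds, sample sets and a replicate block.

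The comparison, whose libraries follow from the labels, and the 64 gene lists were chosen with earlier results of these data known. Named genes are EMP2, HIF1A, VEGFA, VHL, VCP and MT-RNR1, the largest changes by ratio and by CPM, those differing most from both WT and VC cells, those within 0.5 (log2) of VC, and in each list the largest calls in each direction. Part of these is printed, some genes are not reported here, and other list members were chosen after their values were seen. Lists were described by counts and medians without a set test. Promoter windows of 300 bases were matched by symbol for 13092 of 24873 genes.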

Additional observations from a re-analysis of the deposited data

Results flagged for a closer look

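The OE minus WT change differed between hypoxia and normoxia by the edgeR interaction test for 2 of the 6 genes tested for it, EMP2, HIF1A, VEGFA, VHL, VCP and MT-RNR1. For HIF1A the difference, hypoxia minus normoxia, was 0.58 on the log2 scale, and for VEGFA it was -1.24. HIF1A levels were lower in hypoxia than in normoxia in both lines. Without the first hypoxic OE library, which stands apart from the others, the differences were 0.60 and -1.14 and passed as well. Groups of 3 libraries were too small for the check on single outlying libraries.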

How the results depend on the processing

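EMP2 stayed above WT and past the threshold under all alternatives, at 3.38 to 3.47 with WT as the control. The counts of 2358 genes higher and 2541 lower moved by over 1.5 times in 3 cases. The test against a fold of 1.5 called 961 and 936, VC in place of WT called 3833 and 4494, and leaving out 1 library or 1 replicate number gave 1384 to 2945 and 1665 to 3093, lowest without replicate 2 in all groups. The highest of these was without the first hypoxic OE library, a choice made after seeing the data, as was leaving out the 6 VC libraries (2185 and 2364). With the replicate block over 24 libraries the counts were 2428 and 2605, and over the 6 libraries 3381 and 3524, against 3356 and 3469 for these 6 without it. Deviations of same-numbered OE and WT libraries correlated at -0.08, 0.02 and 0.32 over 9780 genes. Those of differently numbered libraries ranged from -0.30 (OE 3 with WT 2) to 0.33 (OE 1 with WT 2). The numbers were therefore not taken to pair the libraries. Whether set 3, with its own OE code, differs from sets 1 and 2 was not tested. DESeq2 called 2686 and 2652, with 4929 genes given no adjusted p, and limma-voom 2567 and 2629. Of 233 named genes besides EMP2, 1 lost its call in DESeq2, 2 in limma-voom and 45 in the test against a fold of 1.5. With VC as the control 20 kept their direction and lost their call, and without the 6 VC libraries 4 lost it (IFI27, IL34, RPLP2 and TNFSF15). Leaving out 1 OE or WT library took the call of 4 to 8 genes at a time and of 8 in all (CDH2, CDKN1A, IFI27, IL34, RPE65, RPLP2, TNFSF15 and VEGFA). Leaving out replicate 1, 2 or 3 in all groups took 4, 14 and 10, with CDK6, GYS1, OTX2, PSAT1, SLC7A5, SPARC, TGFB1, TGFB2, TIMP1, TLN1 and TRIM22 besides those 8.

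With VC as the control, genes that fell or were not called against WT had changes above 0 of 0.31 for AK5, 0.58 for ARNT2, 0.92 for CDH11, 0.68 for CDKN1A, 0.82 for CEMIP, 0.056 for CLU, 2.18 for CMKLR1, 0.37 for COLEC12, 1.44 for EFEMP1, 0.53 for ENPP2, 0.0016 for F3, 0.065 for FDFT1, 1.52 for FGF5, 0.32 for FZD8, 0.46 for GALNT16, 1.30 for GPNMB, 0.75 for ITGA5, 0.31 for ITGB1, 1.66 for ITGB5, 0.32 for LAMA4, 1.46 for MITF, 0.72 for MMP14, 2.49 for NID2, 1.47 for OTX2, 0.094 for PDGFC, 0.42 for PLIN2, 0.39 for PSAP, 1.79 for RARRES2, 0.36 for SESN2, 1.45 for SFRP1, 0.77 for SOD3, 1.86 for SPARC, 0.24 for TLN1, 0.70 for VCL and 0.042 for VEGFC. Genes that were higher against WT had changes below 0 of -1.35 for CAVIN2, -0.057 for CP, -0.13 for EGFR, -0.91 for HK2, -6.44 for IFI27, -2.47 for IL34, -1.23 for KRT18, -0.27 for MGMT, -0.20 for PFKFB3, -2.64 for SAMD9, -1.01 for SLC2A10, -0.55 for SLC7A5 and -2.53 for TNFSF15. The cause was not tested. With libraries left out the change of a gene that was not called crossed 0 in 1 case: VHL was at -0.035 to 0.072 without 1 OE library, -0.038 to 0.12 without 1 WT library and -0.072 to 0.17 without 1 replicate number. The difference between oxygen levels passed for EMP2 (0.43) and VCP (0.33) without the first hypoxic OE library. Changes of genes under about 1 CPM rest on few reads.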
